A study of Mus musculus with 13 samples.

Results

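The slit diaphragm is the thin adhesive sheet that joins the foot processes of neighbouring podocytes, the epithelial cells on the outer face of the glomerular capillary. Nephrin (gene Nphs1) and its Neph relatives (genes Kirrel and Kirrel2) reach across the slit, adaptor and scaffold proteins inside the cell tie their tails to actin, and the kinase Fyn phosphorylates the nephrin tail. Loss of nephrin or of CD2AP gives a leaky filter and protein in the urine. The 8 genes described here are the rows of the deposited count table whose gene symbols are Nphs1, Kirrel, Kirrel2, Fat1, Cd2ap, Tjp1, Iqgap1 and Fyn, out of 46958 genes listed. All 8 passed the filter on low counts, which kept 16738 genes.

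Glomeruli had been isolated on magnetic beads and the mice were 6 months old, on a mixed strain background spelled C57/BL6x129/SVxBALB/c in the labels. The 4 libraries labelled kFRA (LCDD), called LCDD below, model light chain deposition disease, in which immunoglobulin light chains are laid down along kidney basement membranes. The 4 libraries labelled DH-LMP2A carry an allele the labels do not describe further. It is known elsewhere as the Epstein-Barr virus protein LMP2A placed in the mouse immunoglobulin heavy chain locus. The labels do not say whether the LCDD mice also carry it. A difference of LCDD from WT or from DH-LMP2A therefore cannot be assigned to 1 allele. The 5 WT libraries are wild type. Each library pooled 3 mice, except WT replicates 3, 4 and 5, which came from 1 mouse each. Sample titles also share a numeric code with 4 values, called title codes 1 to 4 here, whose meaning is not given. LCDD and DH-LMP2A have 1 library under each code, and WT has 1 under code 1, 1 under code 3 and its single mice under code 4.

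In the mouse build GRCm38, Nphs1 and Kirrel2 lie head to head on chromosome 7. Nphs1 spans 30458315 to 30487223 on the plus strand with 31 exons. Kirrel2 spans 30447534 to 30457690 on the minus strand with 13 exons, which leaves 624 bases between the pair. Tjp1 (65296165 to 65527781, minus strand, 31 exons) and Iqgap1 (80711583 to 80825974, minus strand, 42 exons) are on the same chromosome. Kirrel lies on chromosome 3 (87078593 to 87174747, minus strand, 16 exons) and Fat1 on chromosome 8 (44935447 to 45052257, plus strand, 30 exons). Cd2ap lies on chromosome 17 (42792951 to 42876424, minus strand, 18 exons) and Fyn on chromosome 10 (39368855 to 39565381, plus strand, 20 exons).

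RefSeq start windows (GRCm38.p6, 250 bases before to 50 after the start) were matched for 8 of 8 genes and searched for the dinucleotide CG, which reads the same on both strands. The median over 32851 windows of the same length was 7 CG, and 5.43% of windows held none. Cd2ap held 41, Tjp1 and Fyn 31 each, and Kirrel and Iqgap1 28 each. Kirrel2 held 8, Nphs1 6 and Fat1 2, so the counts ran from more CG than in 96.5% of windows for Cd2ap to more than in 14.1% for Fat1. The RefSeq windows of Nphs1, Tjp1, Iqgap1, Fat1 and Fyn lie inside the spans given above, since RefSeq starts those genes elsewhere. Those of Kirrel and Kirrel2 reach past the span ends, to 87174787 and 30457765, but their RefSeq starts also lie inside the spans. The Nphs1 window lies wholly within exons, so its CG count does not describe the interval shared with Kirrel2. Below are the stretches outside every annotated exon for Kirrel2, the most variable of the 8 genes across these libraries, and for Iqgap1, the least variable. Each is written 5′ to 3′ on the minus strand, the gene's own, with every CG in capitals. The Kirrel2 stretch, chr7:30457691-30457765, lies in the interval that separates it from Nphs1 and holds 2 CG in 75 bases. That stretch is the part of the window farthest before the RefSeq start. The Iqgap1 stretch, chr7:80803417-80803581, holds 13 CG in 165 bases. No methylation or factor binding was measured here, so the letters stand as a description.
Kirrel2: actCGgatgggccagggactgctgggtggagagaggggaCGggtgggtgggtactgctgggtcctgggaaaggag
Iqgap1: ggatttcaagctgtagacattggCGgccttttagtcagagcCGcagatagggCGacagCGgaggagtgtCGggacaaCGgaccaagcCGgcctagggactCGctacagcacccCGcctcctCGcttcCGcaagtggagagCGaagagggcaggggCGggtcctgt

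Levels between genes are compared as RPKM, that is CPM (counts scaled to a common library total with TMM factors) per kilobase of the deposited gene length. Nphs1 was the most abundant, at 422.5 ± 199 RPKM (SD, n = 13 libraries), above 99.67% of the genes kept. Tjp1 followed at 107.6 ± 32.1 RPKM, Cd2ap at 74.2 ± 29.0 and Fat1 at 57.5 ± 18.0. Kirrel stood at 48.9 ± 17.5 RPKM, Fyn at 43.0 ± 8.98 and Iqgap1 at 29.4 ± 2.38. Kirrel2 was last at 5.39 ± 3.21 RPKM, above 50.29% of the genes kept. Nphs1 exceeded Tjp1, Tjp1 exceeded Cd2ap, Fat1 exceeded Kirrel, and Iqgap1 exceeded Kirrel2 in 13 of 13 libraries each. Cd2ap was above Fat1 in 10 of 13 and Kirrel above Fyn in 9 of 13, so these neighbours did not separate beyond their spread, while Fyn was above Iqgap1 in 12 of 13.

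Library totals ran from 16687509 to 30587890 counts, and the lowest count of any of the 8 genes in any library was 98, for Kirrel2 in WT replicate 1. All 12 podocyte markers on a list without slit diaphragm genes were abundant in every library, with no marker under 831 counts. Their summed level, however, ran from 6791 to 25645 CPM in LCDD, from 14050 to 24749 in DH-LMP2A and from 13756 to 29171 in WT. Tubule markers, 11 genes, summed to 582 to 2182 CPM in LCDD, 990.2 to 3355 in DH-LMP2A and 317 to 3523 in WT. Y-linked genes, 4 in all, summed to 0, 27.0, 0.04, 0 and 0.08 CPM in WT replicates 1 to 5. They summed to 68.3 to 223 CPM in DH-LMP2A and 18.0 to 220.2 in LCDD. Male RNA was thus scarce in WT outside replicate 2 and present in every DH-LMP2A and LCDD library. In DH-LMP2A against WT, sex and genotype therefore cannot be told apart. In LCDD against WT the overlap rests on WT replicate 2, above LCDD replicates 2 and 4 (21.1 and 18.0 CPM), too little to separate them. LCDD and DH-LMP2A libraries of the same code were not balanced either. LCDD had 21.1 and 18.0 CPM against 223 and 126 under codes 2 and 4, and 174 and 220 against 111 and 68.3 under codes 1 and 3. The part of sex in the fits with the block was not tested. In bulk tissue, fewer podocytes and less of a podocyte RNA per cell cannot be told apart.

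The title code moved with most of these genes. The lowest library of the genotype was the code 1 library in 20 of the 24 combinations of gene and genotype. The exceptions were Cd2ap in WT (replicate 2, code 3), Fat1 in LCDD (replicate 2, code 2), and Iqgap1 in DH-LMP2A (replicate 3, code 3) and in LCDD (replicate 2, code 2). In LCDD the podocyte sum was lowest under code 1, and so it was in DH-LMP2A and in WT. Each test below therefore stands without the code and, where the call differs, with the code as an additive block.

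**Figure D1:**
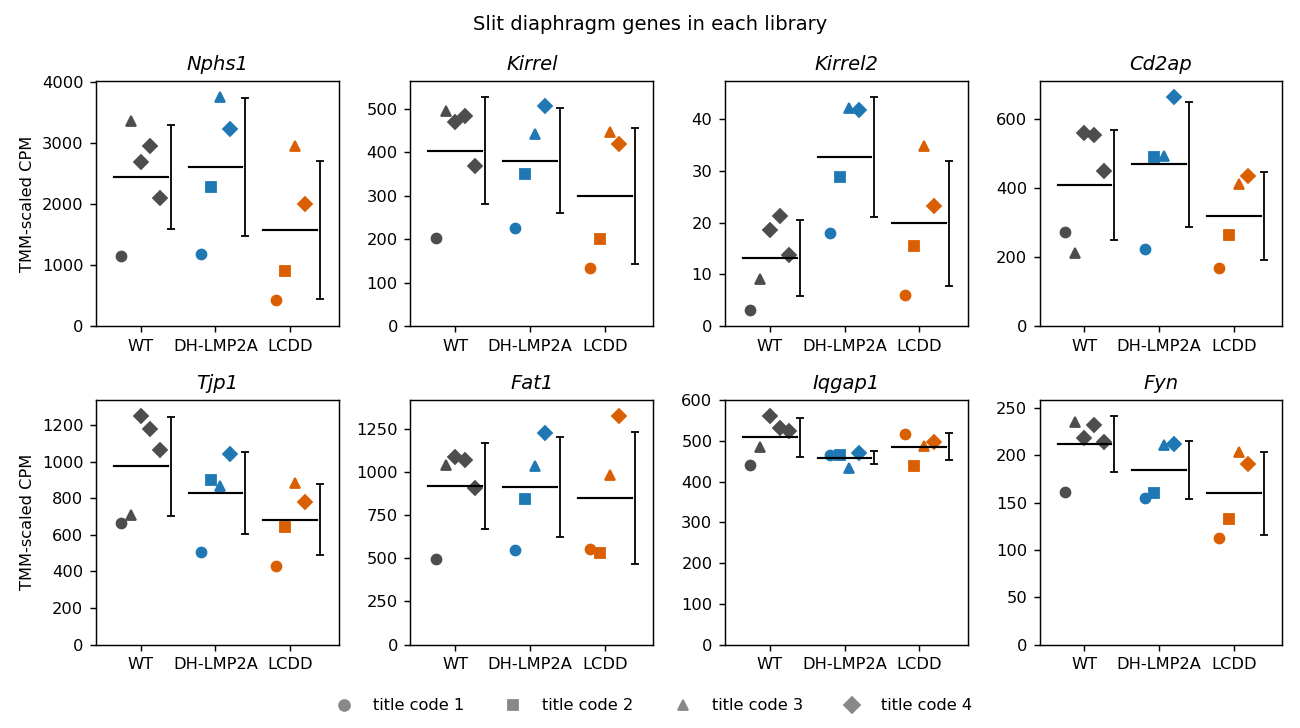
TMM-scaled CPM (vertical axes, starting at 0) of the 8 genes in each library, by genotype. Points are libraries with the shape giving the title code, horizontal lines are means and bars are 1 SD (n = 5 WT, 4 DH-LMP2A, 4 LCDD); Nphs1 ranges from 429 to 3760 CPM and its code 1 libraries are lowest in each genotype, whereas Iqgap1 stays between 435 and 562.

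Comparing LCDD with DH-LMP2A, none of the 8 genes passed the threshold in edgeR without the block. The edgeR count at an unadjusted p under 0.05 was also 0 of 8, against 2193 of the 16738 genes tested, and 2% of all genes were called. DESeq2 called 0 of 8 and 812 of all genes, and its other counts over all genes are given with the processing settings below. With the block, 1 of 8 was called, Nphs1, lower in LCDD, against 6.1% of all genes in either direction and 2.86% lower. At an unadjusted p under 0.05 in edgeR the block gave 5 of 8, beside 3761 of all genes. Comparing LCDD with WT, 0 of 8 were called without the block (1 at an unadjusted p under 0.05, 0 by DESeq2) and 0 with it, against 1.84% and 3.2% of all genes. At an unadjusted p under 0.05 in edgeR there were 2002 of all genes without the block, and 4 of 8 beside 2927 of all genes with it. Comparing DH-LMP2A with WT, 0 of 8 were called without the block (1 at an unadjusted p under 0.05, 0 by DESeq2), against 0.627% of all genes. Of all genes, 2085 had an unadjusted p under 0.05 in that edgeR fit. With the block 1 of 8 was called, Kirrel2, higher in DH-LMP2A, against 3.36% of all genes in either direction and 1.77% higher. The edgeR count at an unadjusted p under 0.05 was 1 of 8 there, beside 3637 of all genes. The 3 comparisons share libraries, so they are not independent of each other.

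Most values in LCDD were negative. Of the 8 genes, 7 had a negative log2 fold change and 1 a positive one against DH-LMP2A, with a median of -0.31, while the median over all genes tested was -0.0061. Against WT the split was again 7 to 1, with a median of -0.39 beside 0.010 over all genes. The podocyte markers were lower in LCDD than in WT for 12 of 12, with 1 called in edgeR and a median of -0.555. DH-LMP2A against WT gave 5 negative and 3 positive values with a median of -0.046 beside 0.00089 over all genes. With the block these counts turned to 3 negative and 5 positive with a median of 0.21. LCDD against WT had 6 negative and 2 positive with the block (median -0.21), and LCDD against DH-LMP2A still had 7 and 1 (median -0.36). In none of the 3 comparisons did any of the 8 genes have libraries of both genotypes that did not overlap, a separation found in 7.62%, 4.59% and 4.97% of all genes.

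**Figure D2:**
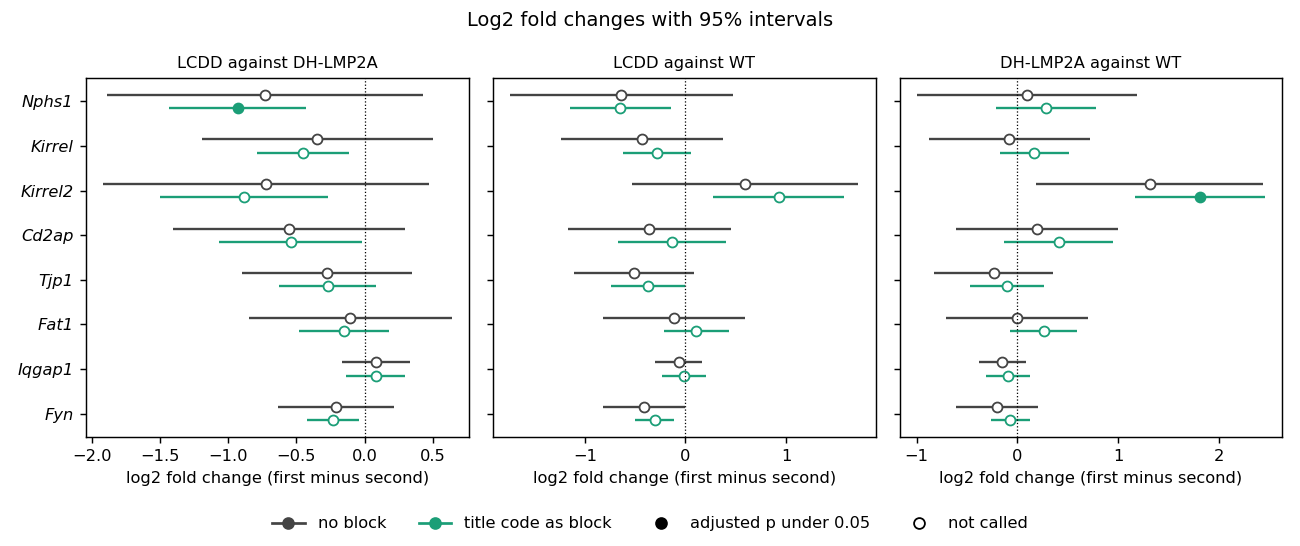
Log2 fold change (horizontal axes, first genotype minus second) with 95% intervals for the 8 genes in the 3 comparisons, without the title code (dark) and with it as a block (green). Filled points passed an adjusted p of 0.05: Nphs1 at -0.93 in LCDD against DH-LMP2A and Kirrel2 at 1.81 in DH-LMP2A against WT, both with the block only.

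Nphs1 encodes nephrin, the adhesion molecule that spans the slit and carries the tyrosines that Fyn phosphorylates. Its levels in LCDD replicates 1 to 4 were 429, 902, 2962 and 2005 CPM. The DH-LMP2A replicates 1 to 4 had 1176, 2281, 3760 and 3240 CPM, and WT replicates 1 to 5 had 1145, 3361, 2687, 2949 and 2101. LCDD replicates 1 and 2 lay below every other library, replicates 3 and 4 lay among the controls, and the genotypes overlapped. Means were 1575 ± 1137 CPM in LCDD (SD, n = 4), 2614 ± 1138 in DH-LMP2A (n = 4) and 2449 ± 860.1 in WT (n = 5).

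Against DH-LMP2A the log2 fold change of Nphs1 was -0.73 ± 0.54 (SE), with an edgeR adjusted p of 0.634. Within codes 1 to 4 the LCDD library was below its DH-LMP2A partner each time, by log2 CPM differences of -1.45, -1.34, -0.34 and -0.69. With the block the value was -0.93 ± 0.22, a level 1.91-fold lower, with a 95% interval of -1.43 to -0.43 and an edgeR adjusted p of 0.0384. That call was kept when LCDD replicate 3 or WT replicate 1, 2 or 5 was left out. Adjusted p ran from 0.0211 to 0.188 over the 13 omissions, and the call was lost without LCDD replicate 1, 2 or 4, any DH-LMP2A replicate, or WT replicate 3 or 4. It was also lost without all 3 single-mouse WT libraries, at -0.95 (edgeR adjusted p = 0.11). Adding the tubule marker mean to the block lost the call too, at -0.94 (edgeR adjusted p = 0.0713).

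Podocyte markers moved with this difference: 11 of the 12 were lower in LCDD than in DH-LMP2A, with 2 called lower in edgeR with the block, and their median log2 fold change was -0.45 without the block and -0.64 with it. Other marker lists differed too: endothelial markers were higher in LCDD for 8 of 8 (median 0.49, 0 called without or with the block), and mesangial markers for 6 of 7 (median 0.52, 1 called higher without and 2 with the block). The part of those 2 lists in the Nphs1 value was not tested. With the podocyte marker mean added to the block, the Nphs1 value was -0.31 (edgeR adjusted p = 0.823). Relative to that marker mean, Nphs1 stood at 1.15 to 1.82 log2 units in LCDD, 1.24 to 2.09 in DH-LMP2A and 1.28 to 1.73 in WT, ranges that overlap. Against WT the log2 fold change of Nphs1 in LCDD was -0.64 ± 0.51 (edgeR adjusted p = 0.746). DH-LMP2A against WT gave 0.09 ± 0.51 with a 95% interval of -0.998 to 1.19 (edgeR adjusted p = 0.963).

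**Figure D3:**
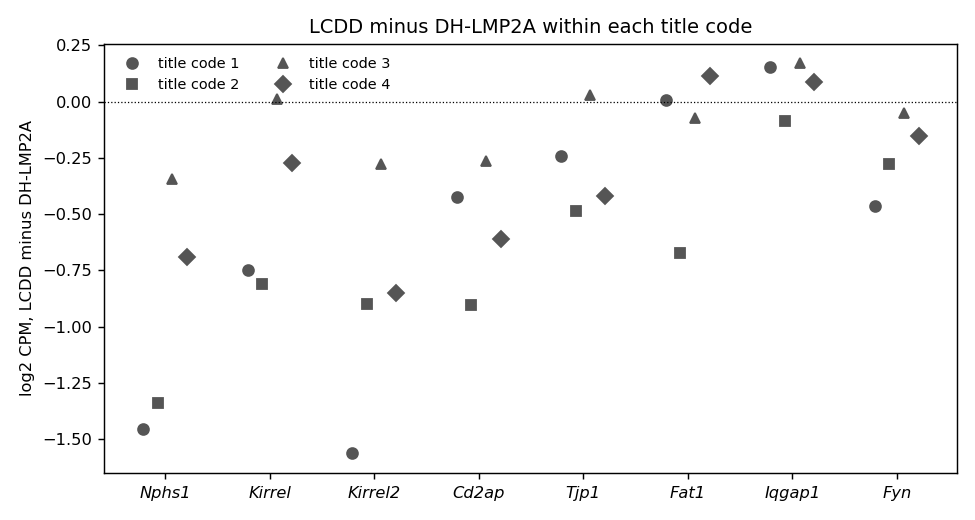
Difference in log2 CPM between the LCDD and the DH-LMP2A library of the same title code (vertical axis), for the 8 genes. Each point is 1 pair and the dotted line marks no difference; Nphs1, Kirrel2, Cd2ap and Fyn lie below the line under 4 of 4 codes, and Iqgap1 lies above it under 3 of 4.

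Kirrel encodes Neph1, which binds nephrin across and along the slit. Its levels were 134, 199.5, 446 and 419 CPM in LCDD replicates 1 to 4. DH-LMP2A had 226, 350.3, 442 and 506 CPM, and WT replicates 1 to 5 had 202, 495.5, 470.1, 483 and 368. As for Nphs1, LCDD replicates 1 and 2 and the code 1 libraries of the other genotypes were low and the genotypes overlapped. The log2 fold change was -0.35 ± 0.39 against DH-LMP2A (edgeR adjusted p = 0.775) and -0.43 ± 0.37 against WT (edgeR adjusted p = 0.772). DH-LMP2A against WT gave -0.083 ± 0.37 (edgeR adjusted p = 0.953). Across the 13 libraries log2 CPM of Kirrel followed that of Nphs1 with a Pearson r of 0.97. These points share libraries and depth, and the value is a description.

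Kirrel2 encodes Neph3, a Neph protein that can also pair with nephrin, and it showed the widest range of the 8 genes, 13.3-fold from the lowest to the highest CPM. WT replicates 1 to 5 had 3.17, 9.02, 18.6, 21.2 and 13.7 CPM. The DH-LMP2A replicates 1 to 4 had 18.1, 28.8, 42.1 and 41.9 CPM, and the LCDD replicates had 6.06, 15.4, 34.7 and 23.1. The 2 WT pools were lower than every DH-LMP2A library, and 2 of the 3 single WT mice lay above the lowest DH-LMP2A library. Means were 13.1 ± 7.28 CPM in WT (SD, n = 5), 32.7 ± 11.6 in DH-LMP2A (n = 4) and 19.9 ± 12.1 in LCDD (n = 4).

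Against WT, the log2 fold change of Kirrel2 in DH-LMP2A was 1.31 ± 0.52, with an unadjusted p of 0.0256 and an adjusted p of 0.325 in edgeR. Under codes 1, 3 and 4 the DH-LMP2A library exceeded WT by 2.48, 2.21 and 1.25 log2 CPM, the last against the mean of the single mice. A direction shared by all 3 of these codes was found in 32.3% of all genes. With the block Kirrel2 rose in DH-LMP2A by 1.81 ± 0.29 (edgeR adjusted p = 0.0162). The call held in 13 of 13 fits with the block and 1 library left out, with values from 1.55 to 2.08 and adjusted p from 0.00793 to 0.0408. It also held with the block and without the single-mouse WT libraries, at 2.35 (edgeR adjusted p = 0.0414), a fit chosen after seeing the data.

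With a marker mean added to the fit without the block, the Kirrel2 value was 1.66 for the podocyte mean (edgeR adjusted p = 0.00768) and 2.32 for the tubule mean (edgeR adjusted p = 0.00595). Endothelial markers were lower in DH-LMP2A than in WT for 8 of 8 (median -0.72, and 3 called lower with the block in edgeR), and their part in the Kirrel2 value was not tested. With the mean of the Y-linked genes added, the Kirrel2 value was 1.80 with an edgeR adjusted p of 0.622. WT and DH-LMP2A libraries do not overlap in that mean, so this fit cannot tell sex from genotype. In LCDD the log2 fold change of Kirrel2 against WT was 0.59 ± 0.52 (edgeR adjusted p = 0.779) and 0.93 ± 0.29 with the block (edgeR adjusted p = 0.126). It was 1.58 with the podocyte mean in the fit (edgeR adjusted p = 0.0247) and 1.35 with that mean and the block (edgeR adjusted p = 0.213). Against DH-LMP2A, Kirrel2 in LCDD had a value of -0.72 ± 0.55 (edgeR adjusted p = 0.652) and was below its partner under 4 of 4 codes. With the block it was -0.88 ± 0.28 (edgeR adjusted p = 0.0883), and it was called at -1.20 when LCDD replicate 3 was also left out (edgeR adjusted p = 0.0261).

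The head-to-head pair was in a different proportion in WT. Nphs1 CPM divided by Kirrel2 CPM was 361 and 373 in the WT pools and 144, 139 and 154 in the single WT mice. DH-LMP2A replicates 1 to 4 gave 65.1, 79.2, 89.4 and 77.4, and LCDD replicates 1 to 4 gave 70.8, 58.4, 85.3 and 86.6. Every WT library was above all DH-LMP2A and LCDD libraries, while the ranges of those 2 genotypes overlapped. Relative to the podocyte marker mean, Kirrel2 stood at -7.17 to -5.63 log2 units in WT, -4.78 to -4.39 in DH-LMP2A and -5.02 to -4.52 in LCDD. The ratio was looked at after the values were seen, and it is given with no test. How many other gene pairs separate WT in this way was not counted. Y-linked RNA was lower in every WT library than in any DH-LMP2A library, so sex and genotype cannot be told apart there. WT replicate 2, with 27.0 CPM of Y-linked RNA and a ratio of 373, exceeded LCDD replicates 2 and 4 in both (21.1 and 18.0 CPM). The part of sex in the ratio was not tested.

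**Figure D4:**
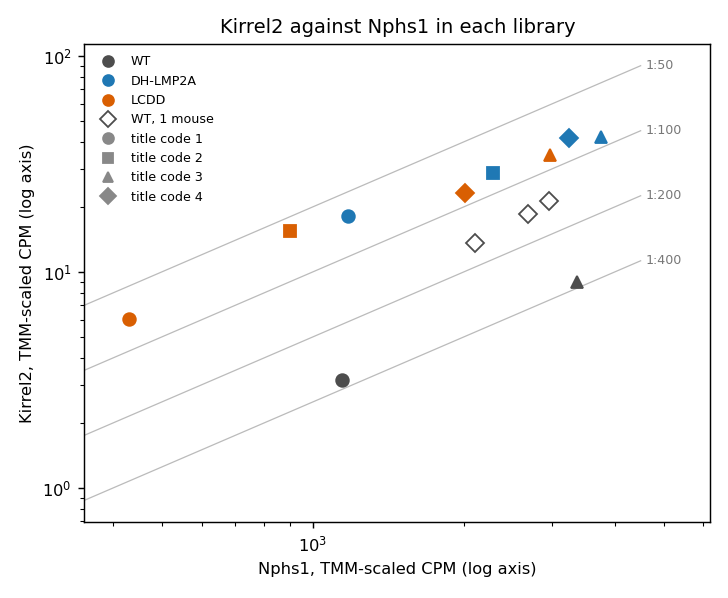
Kirrel2 against Nphs1 in each of the 13 libraries (both axes TMM-scaled CPM, log scale), with colour for genotype, shape for title code and open symbols for WT libraries of 1 mouse. Grey lines mark constant proportions; the WT libraries lie at 1 Kirrel2 to 139 to 373 Nphs1 and all others at 1 to 58.4 to 89.4.

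Fat1 encodes a giant protocadherin found at the slit. Its levels were 553, 531, 983 and 1327 CPM in LCDD replicates 1 to 4 and 549.7, 846, 1033 and 1226 in DH-LMP2A. WT replicates 1 to 5 had 495, 1039, 1086, 1069 and 907. The genotypes overlapped throughout, and LCDD replicate 4 was the highest of all libraries. LCDD against DH-LMP2A gave a log2 fold change of -0.11 ± 0.34 with a 95% interval of -0.85 to 0.64 (edgeR adjusted p = 0.932), and LCDD against WT gave -0.12 ± 0.33 (edgeR adjusted p = 0.959). DH-LMP2A against WT gave -0.0092 ± 0.33 (edgeR adjusted p = 0.995).

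Cd2ap encodes the adaptor that links nephrin to actin and to survival signalling. LCDD replicates 1 to 4 had 168, 263, 412 and 436 CPM. DH-LMP2A had 225, 492, 495 and 665, and WT replicates 1 to 5 had 273, 213, 560.0, 553 and 450.4. WT replicate 2 was low for Cd2ap although its podocyte markers were among the highest, and the genotypes overlapped. Against DH-LMP2A the LCDD library was lower under 4 of 4 codes, the log2 fold change was -0.55 ± 0.40 (edgeR adjusted p = 0.623), and with the block it was -0.54 with an adjusted p of 0.206. Against WT it was -0.36 ± 0.38 (edgeR adjusted p = 0.828), and DH-LMP2A against WT gave 0.19 ± 0.37 (edgeR adjusted p = 0.869).

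Tjp1 encodes ZO-1, the scaffold that binds the tail of Neph1. Its levels were 429.9, 643, 884 and 778 CPM in LCDD, 509, 902, 865 and 1040.0 in DH-LMP2A, and 663, 709, 1253, 1182 and 1066 in WT. Each LCDD library was below the lowest single WT mouse, but the WT pools of replicates 1 and 2 lay within the LCDD range. LCDD against WT gave -0.51 ± 0.28 (edgeR adjusted p = 0.529). With the block it was -0.37 with an adjusted p of 0.278, and -0.59 with an adjusted p of 0.047 when WT replicate 2 was also left out. LCDD against DH-LMP2A gave -0.28 ± 0.29 (edgeR adjusted p = 0.751) and DH-LMP2A against WT -0.23 ± 0.27 (edgeR adjusted p = 0.762).

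Iqgap1 encodes a broad cytoskeletal scaffold that binds nephrin complexes and is made by many cell types. It was the steadiest of the 8 genes, with 518, 438, 489 and 498 CPM in LCDD, 465, 466, 435 and 469 in DH-LMP2A, and 439.9, 486, 562, 532 and 524 in WT. Its highest library was 1.29-fold above its lowest, and its SD of log2 CPM was above that of 2.94% of the genes kept. The log2 fold change was 0.08 ± 0.12 in LCDD against DH-LMP2A, with a 95% interval of -0.17 to 0.33 (edgeR adjusted p = 0.823). It was -0.07 ± 0.11 in LCDD against WT (edgeR adjusted p = 0.917) and -0.15 ± 0.11 in DH-LMP2A against WT (edgeR adjusted p = 0.609).

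Fyn encodes the Src-family kinase that phosphorylates nephrin. LCDD replicates 1 to 4 had 112, 132, 203.5 and 190.5 CPM, DH-LMP2A had 155, 161, 211 and 212, and WT had 161, 235.5, 218, 232 and 214. The LCDD libraries lay below the WT libraries apart from WT replicate 1, the WT library of code 1. LCDD against WT gave a log2 fold change of -0.41 ± 0.19, with an unadjusted p of 0.0488 and an adjusted p of 0.415 in edgeR, and -0.31 with the block (edgeR adjusted p = 0.0926). Against DH-LMP2A the LCDD library was lower under 4 of 4 codes, and the log2 fold change was -0.21 ± 0.20 (edgeR adjusted p = 0.728). DH-LMP2A against WT gave -0.20 ± 0.19 (edgeR adjusted p = 0.696). That pattern, a direction shared by all 4 codes, was found for Nphs1, Kirrel2, Cd2ap and Fyn here and for 33.8% of all genes. Against WT, LCDD kept 1 direction under all 3 shared codes for Nphs1, Kirrel and Fyn (lower) and Kirrel2 (higher), as did 31.3% of all genes.

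Over the 13 libraries the genes divided by how closely they followed the podocyte markers. Log2 CPM had a Pearson r with the podocyte marker mean of 0.971 for Nphs1, 0.971 for Kirrel and 0.975 for Fyn, with Spearman rho of 0.857, 0.951 and 0.945. Without LCDD replicates 1 and 2, the libraries farthest from the median, r was 0.913, 0.963 and 0.953. Fat1 and Tjp1 both had an r of 0.826, and Cd2ap 0.725, which went to 0.858, 0.709 and 0.501 without those libraries. Kirrel2 had an r of 0.548 over all libraries and 0.886 after the genotype means were removed. Its rho was 0.418, and its r without LCDD replicates 1 and 2 was 0.454. Iqgap1 had an r of 0.218, a rho of 0.407, and an r of 0.208 after the genotype means were removed. Without LCDD replicates 1 and 2 its r was 0.533, so the low value rests on those libraries. Against the tubule marker mean r was negative for all 8 genes, from -0.33 for Kirrel2 to -0.80 for Fat1. All libraries share the scaling to their total, and these values describe the libraries with no test.

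**Figure D5:**
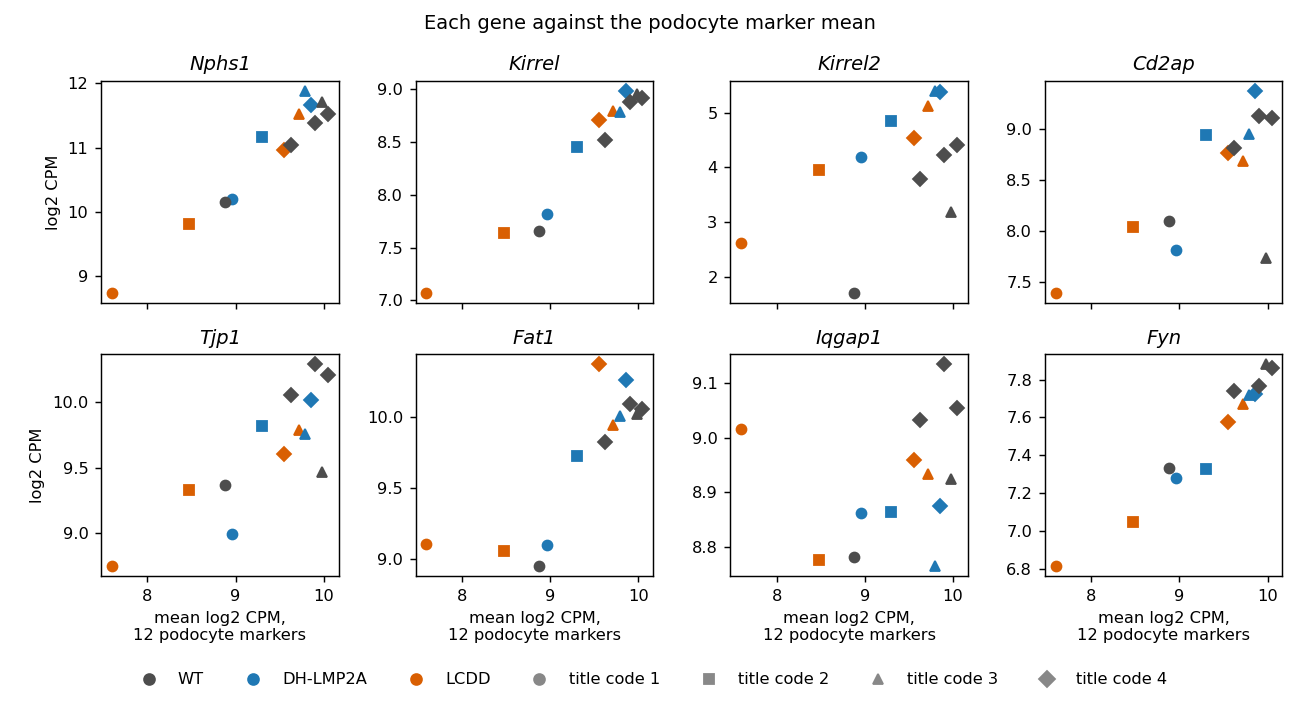
Log2 CPM of each gene (vertical axes, prior count 2) against the mean log2 CPM of 12 podocyte markers (horizontal axes), 1 point per library with colour for genotype and shape for title code. Nphs1, Kirrel and Fyn lie along a line (r of 0.971, 0.971 and 0.975), the WT points of Kirrel2 lie below the others, and Iqgap1 has an r of 0.218 over all libraries and 0.533 without LCDD replicates 1 and 2.

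A list of 41 other slit diaphragm genes, covering further membrane proteins, scaffolds, kinases and adaptors, and actin and traffic proteins, was read from the same fits, and all 41 were tested. LCDD against DH-LMP2A gave 20 higher and 21 lower with a median log2 fold change of -0.024. In edgeR 0 of 41 were called (5 at an unadjusted p under 0.05, 1 by DESeq2), and 2 with the block. LCDD against WT gave 17 higher and 24 lower with a median of -0.047 and 1 called in edgeR. DH-LMP2A against WT also gave 17 higher and 24 lower with a median of -0.048. In edgeR 0 were called there (4 at an unadjusted p under 0.05, 1 by DESeq2). The shares called without and with the block over all genes, and the counts of all genes at an unadjusted p under 0.05, are those given above. The DESeq2 counts over all genes are given with the processing settings below.

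The gene of this list called in LCDD against WT was Sh3kbp1, which encodes CIN85 (Ruk), an adaptor related to CD2AP. Its levels in LCDD replicates 1 to 4 were 71.7, 56.6, 46.9 and 71.1 CPM, against 41.2, 45.4, 42.3 and 44.5 in DH-LMP2A and 40.1, 33.4, 40.8, 37.4 and 47.6 in WT. Only LCDD replicate 3 fell within the WT range. Every LCDD library was above every DH-LMP2A library, a separation found in either direction in 7.62% of all genes. Sh3kbp1 rose in LCDD against WT by 0.63 ± 0.13 (edgeR adjusted p = 0.0299), and against DH-LMP2A it stood at 0.51 ± 0.14 (adjusted p = 0.0947 without and 0.0375 with the block). The call against WT was lost without LCDD replicate 1, 2 or 4 or WT replicate 2, 3 or 4, and with the podocyte mean in the fit (edgeR adjusted p = 0.0859). Against DH-LMP2A the call with the block was lost with the podocyte mean added, at 0.26 (edgeR adjusted p = 0.824).

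Nck2, an adaptor that binds phosphorylated nephrin, had 51.4, 65.3, 126.6 and 101.5 CPM in LCDD and 91.7, 88.1, 145.8 and 149.8 in DH-LMP2A, overlapping ranges. Its log2 fold change was -0.46 ± 0.31 without the block (edgeR adjusted p = 0.591) and -0.51 ± 0.11 with it (edgeR adjusted p = 0.0247). The call was lost with the podocyte mean added to the block, at -0.33 (edgeR adjusted p = 0.648), and the value was -0.067 with that mean and no block (edgeR adjusted p = 0.916). Kirrel3, the remaining Neph gene and named after its values were seen, had 6 to 63 counts a library. It was lower in every LCDD library than in every DH-LMP2A library, a separation found in either direction in 7.62% of all genes. Its log2 fold change was -1.14 ± 0.41 (edgeR adjusted p = 0.214).

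On chromosome 7, Aplp1 lies 1951 bases from Kirrel2 on its far side from Nphs1, and encodes an amyloid precursor-like membrane protein. Its CPM was 63.3, 118.4, 255.1 and 197.2 in LCDD, 172.9, 223.2, 356.6 and 357.8 in DH-LMP2A, and 152.9, 479.2, 313.9, 352.6 and 250.5 in WT. LCDD against DH-LMP2A gave -0.81 ± 0.42 (edgeR adjusted p = 0.45), and Aplp1 fell by 0.93 ± 0.17 with the block (edgeR adjusted p = 0.0126). In LCDD against WT it stood at -0.97 ± 0.40 (edgeR adjusted p = 0.335), and it fell by 0.87 ± 0.17 with the block (edgeR adjusted p = 0.023). Both calls were lost with the podocyte mean added to the block, at -0.47 (edgeR adjusted p = 0.42) and -0.44 (edgeR adjusted p = 0.361). DH-LMP2A against WT gave -0.16 ± 0.40 without the block (edgeR adjusted p = 0.907) and 0.058 with it (edgeR adjusted p = 0.873), while the neighbouring Kirrel2 was called there with the block. Nphs1os, which overlaps Nphs1 on the other strand, had at most 16 counts in a library, and whether the counting used strand is not given. It was not called, and neither was Prodh2, the next gene beyond Nphs1.

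The genes whose log2 CPM most resembled each gene over the 13 libraries were sought among the 16738 genes kept, as a description. For Nphs1 they were Col4a5 and 6530402F18Rik (Pearson r of 0.99 each), Npnt and Col4a4 (0.987 each) and Fam65a (0.985). Col4a4 and Col4a5 encode chains of the collagen IV network that podocytes lay down in the glomerular basement membrane. For Kirrel they were Ptpn14 (0.993), Eif3m (0.984) and Cd59a (0.982), and for Fyn they were Sdc4 (0.987), Astn2 (0.98) and Coro2b (0.979). Fat1 was nearest to Myo1e (0.99), a podocyte myosin on the list of 41, and then to Mylk (0.989) and Crim1 (0.962). Kirrel2 was nearest to Ptprv (0.973), Sh3pxd2a (0.971) and Dynll2 (0.967). Cd2ap was nearest to Chd9 (0.978), 5730585A16Rik (0.974) and Fgd4 (0.971), and Tjp1 to Mpp5 (0.972), Plekhg1 (0.97) and Igf1r (0.97). Iqgap1 had the weakest such values, with Ap2b1 at 0.906, Acbd3 at 0.904 and Cr1l at 0.884. Among the 8 genes themselves, Cd2ap and Tjp1 followed each other with an r of 0.911, and Iqgap1 had an r of at most 0.398 with any other.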

How the data were processed

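Raw read counts per gene in 13 mouse glomerulus libraries were deposited by the authors as a featureCounts table, per the file headers. STAR 2.4.0a, Subread 1.5.0-p3 and DESeq2 are named in the submitters' processing notes, with builds mm10 and GRCm38. The strand setting, the treatment of reads with several matches and the annotation are not given in the sources used here. The libraries kept strand and were selected for poly(A), per the labels.

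Tests used edgeR 4.0.16 (R 4.3.3, limma 3.58.1). Low genes were dropped with filterByExpr (grouping by genotype, min.count 10), leaving 16738. TMM-scaled counts of all 13 libraries entered 1 quasi-likelihood fit with 1 coefficient per genotype, and Benjamini-Hochberg adjustment covered all genes kept, with a call at 0.05. SE was taken from the log2 fold change and the F statistic, as their ratio after F was square-rooted. CPM and RPKM use TMM-scaled totals, log2 CPM a prior count of 2. Alternatives were DESeq2 1.42.0, other filters and normalization, marker covariates, left-out libraries and the title code as block. The edgeR step was tested on simulated data.

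Same-code libraries of different genotypes deviated together from their genotype means over 16738 genes, with correlations of 0.153 to 0.593 for LCDD and DH-LMP2A, 0.127 to 0.4 for LCDD and WT, and 0.16 to 0.492 for DH-LMP2A and WT. Libraries under different codes had mean correlations of -0.139, -0.149 and -0.187 in the same order, values that centring on the genotype means pulls down. Some same-code values were weak. On these values the code was taken to pair the libraries, from the data and the titles alone. The 22 library pairs of the same genotype differed by 12.6 to 233.9 in chi-square per degree of freedom, so no pair looked like 1 library in duplicate. The labels alone say that libraries are separate animals or pools. The genes, the lists and the tests were chosen with earlier results of these data known. Genes named were the 8 in every comparison, genes called on the list of 41, the neighbours of Nphs1 and Kirrel2, and the 5 genes most like Nphs1 or 3 most like each other gene. Some genes of that list are not reported here by name. PCR reads without molecular identifiers make counting error a lower bound.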

Additional observations from a re-analysis of the deposited data

Results flagged for a closer look

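Of 27 groups of 4 or 5 libraries looked at for a value far from the others, 4 stood apart, where chance gives about 1.35. Log2 CPM of Fat1 was 8.95 in WT replicate 1 and 9.82 to 10.09 in the other WT libraries. Log2 CPM of Fyn was 7.34 in the same WT replicate 1 and 7.74 to 7.88 in the others. Iqgap1, the steadiest gene, was at 8.76 in DH-LMP2A replicate 3 and 8.86 to 8.88 in the other DH-LMP2A libraries. The log2 total count was 24.15 in LCDD replicate 3 and 24.59 to 24.66 in the other LCDD libraries.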

How the results depend on the processing

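All genes called, with 105, 334 and 308 in DH-LMP2A against WT, LCDD against DH-LMP2A and LCDD against WT, moved with the setting. DESeq2 called 458, 812 and 726, and a filter at a mean of 5 CPM left 54, 153 and 116. The replicate block, which pairs libraries by title code, gave 562, 1021 and 536. Fitting only the genotypes compared gave 213 for LCDD against DH-LMP2A and 185 for LCDD against WT. The tubule mean as covariate gave 915 for DH-LMP2A against WT and 1128 for LCDD against DH-LMP2A, and with the block 172 and 630. The podocyte mean gave 738 for DH-LMP2A against WT, and with the block, chosen after seeing the data, 539, 80 and 53 in the same order as above. The Y-linked mean gave 36 for DH-LMP2A against WT and 23 for LCDD against WT, and leaving out the single WT mice gave 69 and 54. Leaving out 1 library gave 29 to 407, 113 to 484 and 159 to 441.

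Of the 8 genes, 1 (Kirrel2) was called in DH-LMP2A against WT under the block, the tubule or podocyte mean, either of them with the block, and the block without single mice. LCDD against WT had 1 (Kirrel2) with the podocyte mean. LCDD against DH-LMP2A had 1 with the block, and 0 to 2 with the block and 1 library left out. LCDD against WT had 0 to 1 there, and DH-LMP2A against WT 0 to 1 over both kinds of omission. Of the 41 other genes, DESeq2 called 1, the block 1 and the tubule mean 2 in DH-LMP2A against WT. In LCDD against DH-LMP2A DESeq2 called 1, the block 2, the tubule mean 4 and the block with it 3. The single gene called in LCDD against WT became 0 with no filter, only the genotypes compared, the podocyte or Y-linked mean, without single mice, and with the block and podocyte mean. Omitting 1 library gave 0 to 1 in LCDD against either genotype. The block changed no other call among the 8 genes.

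Directions turned only among values that did not pass the test. In DH-LMP2A against WT, Fat1 (-0.0092) was 0.0036 with the 5 CPM filter, 0.26 with the block, 0.52 with the tubule mean, 0.14 with the podocyte mean, 0.37 with block and tubule mean, 0.23 without single mice, 0.25 with block and podocyte mean, and 0.099 with the block without single mice. Kirrel (-0.083) was in these settings, apart from the filter, 0.17, 0.55, 0.12, 0.27, 0.11, 0.15 and 0.021. Fyn was 0.075 with the tubule mean, Nphs1 -0.42 with the Y-linked mean, and Tjp1 0.095, 0.23 and 0.25 with the tubule mean, the Y-linked mean and no single mice. In LCDD against DH-LMP2A the podocyte mean gave 0.32 for Fat1, 0.042 for Fyn, 0.14 for Kirrel and 0.036 for Tjp1. In LCDD against WT, Fat1 was 0.11 with the block, 0.20 with the tubule mean, 0.46 with the podocyte mean, 0.16 with block and tubule mean, 0.12 without single mice and 0.23 with block and podocyte mean. Cd2ap was 0.17 with the podocyte mean, 0.53 with the Y-linked mean, 0.36 without single mice and 0.15 with block and podocyte mean. The podocyte mean gave 0.27 for Kirrel and 0.21 for Nphs1, and with the block 0.11 for Kirrel. Iqgap1 was 0.015 with block and tubule mean and 0.032 without single mice, with or without the block.

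Over omissions of 1 library, without and with the block, DH-LMP2A against WT ran from -0.021 to 0.67 for Cd2ap, -0.18 to 0.33 for Fat1, -0.25 to 0.30 for Kirrel and -0.13 to 0.48 for Nphs1. LCDD against DH-LMP2A ran from -0.41 to 0.067 for Fat1, and LCDD against WT from -0.55 to 0.13 for Cd2ap, -0.42 to 0.18 for Fat1 and -0.11 to 0.027 for Iqgap1. The causes of these moves were not tested. The 8 genes had at least 98 counts in every library, but Kirrel3 (6 to 63), Nphs1os (0 to 16) and Prodh2 (from 17) were read from fewer, which limits their values.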
